A study of Mus musculus with 3 samples.

Results

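The constant genes of the T cell receptor were read in leukocytes of subcutaneous mouse tumours as markers of the receptor chains that the cells transcribe. The members were the 6 listed genes Trac (alpha chain, ENSMUSG00000076928), Trbc1 (ENSMUSG00000076490) and Trbc2 (ENSMUSG00000076498; both beta chain), Trdc (delta chain, ENSMUSG00000104876), Trgc1 (ENSMUSG00000076749) and Trgc4 (ENSMUSG00000076757; both gamma chain), and all 6 were found among the 33696 genes of the deposited tables. The series held 3 single-cell libraries, 1 per treatment, from B6129SF1/J mice labelled wild-type that carried KP1 tumours, a mouse small-cell lung cancer line with Rb and p53 mutated, after inoculation of 500000 cells. One group received mono-IL-10, a monomeric IL-10, and another IL-10/2-Trikine, a fusion built to join IL-10 and IL-2 receptor engagement, each at 3 µg every 2 days from day 7 to day 19. The remaining group received IL-10/2-Trikine together with anti-PD-1 (clone RMP1-14), at 200 µg on days 7, 11, 15 and 19, and tumours of all groups were taken on day 19. The treatment labels name anti-PD-1 only for the combination, but a protocol text given alike for all 3 libraries can be read as anti-PD-1 for every group, and the groups are taken here as the treatment labels have them. The labels give no untreated group and do not state how many mice entered a library. With 1 library per treatment there was no replicate error, so no difference between treatments was tested and every comparison describes these 3 libraries.

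A T cell carries either an alpha-beta or a gamma-delta receptor, and the constant gene forms the part of each chain that joins the membrane and the CD3 subunits. The delta locus lies inside the alpha locus, so rearrangement of alpha removes delta from that chromosome, while beta and gamma loci each offer several alternative constant genes. NK cells have no rearranged receptor, NKT cells and some activated or innate-like T cells carry NK receptors beside an alpha-beta or gamma-delta receptor, and transcripts of a constant gene can come from a locus without a complete rearrangement, so a constant transcript alone does not show a receptor on the cell.

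How far transcripts of the alternative genes can be told apart was read from GENCODE M21 gene models on GRCm38. Trac lay on chromosome 14 from 54220521 to 54224206 and Trdc from 54142851 to 54148868, both on the plus strand. Trbc1 (chromosome 6, 41538218 to 41539881) and Trbc2 (41546730 to 41548352) also lay on the plus strand. Trgc1 (chromosome 13, 19214103 to 19217024) and Trgc4 (19344558 to 19352756) lay on the plus strand, and Trgc2 (19304649 to 19307551), a further gamma constant gene that was not a member, on the minus strand. The first constant exons of Trbc1 and Trbc2 shared 374 of 375 bases and their coding parts 495 of 518. The stretch from base 369 to base 518 of the coding part, shown because it holds nearly all coding differences, had 22 bases that differ, given in capitals:
Trbc1: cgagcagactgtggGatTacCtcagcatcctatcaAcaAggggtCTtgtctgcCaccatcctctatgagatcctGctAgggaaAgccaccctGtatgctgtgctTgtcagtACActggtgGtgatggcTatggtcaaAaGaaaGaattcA
Trbc2: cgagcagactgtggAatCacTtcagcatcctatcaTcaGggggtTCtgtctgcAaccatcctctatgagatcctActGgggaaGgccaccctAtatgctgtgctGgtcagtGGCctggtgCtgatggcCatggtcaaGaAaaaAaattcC
After the coding part, which was followed by 219 bases in Trbc1 and 174 in Trbc2, the genes were only 55.1% identical. Reads that fall there can tell the 2 genes apart, but where the reads fell was not measured.

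Among the gamma genes, Trgc1 and Trgc4 were 82.1% identical in the first constant exon, 72.2% over the coding part and 56.6% after it. Trgc1 and Trgc2 were 97.3%, 94.6% and 93.5% identical over the same parts, so the split of reads between Trgc1 and Trgc2 is uncertain.

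Cells were sorted as live CD45+ leukocytes, and although the labels call the material T cells, clusters of macrophage-like, neutrophil-like, B cell-like and tumour-like cells were present beside T and NK cells. The 3 libraries kept 22235, 22707 and 26967 cells with medians of 4774, 5562 and 4273 UMIs (unique molecule counts), and pairs of libraries shared between 137 and 180 cell barcodes. Clusters were made without any antigen receptor gene, so that the members' levels were not used to form them. T cell-like cells were 4 clusters with 5651, 8635 and 9081 cells (mono-IL-10, IL-10/2-Trikine and combination, the order used for all triplets of values). NK cell-like cells were 2 clusters, and their cells were divided by Cd3d, Cd3e and Cd3g UMIs. Cells with 2 or more formed the Cd3-positive NK-receptor class (470, 3284 and 1829 cells), and cells with none formed the Cd3-negative NK cell-like class (700, 1344 and 1887 cells). Of the 5583 Cd3-positive cells 4680 lay in the cluster led by Klra6 and Gzmc, and of the 3931 Cd3-negative cells 2774 lay in the cluster led by Klra8, Klra4 and Ncr1. Median UMIs per cell were 5008.5, 7308.5 and 4732 in the Cd3-positive class and 3594.5, 2992.5 and 2846 in the Cd3-negative class, a depth gap that a division by UMIs of Cd3 can set. Scrublet called 23.6%, 16.7% and 3.66% of the Cd3-positive NK-receptor cells doublets, against 2.35%, 9.60% and 0.396% of T cell-like cells and 3.00%, 2.01% and 0.424% of Cd3-negative NK cell-like cells. These cells were kept, and their part in the results was measured by leaving them out.

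Trac, the alpha constant gene, was at a different level in each of the 3 classes. Its level, in UMIs per 1000000 UMIs of the class (CPM), was 1266, 1004 and 1235 in T cell-like cells, 679.0, 704.0 and 731.4 in Cd3-positive NK-receptor cells and 32.8, 36.9 and 42.5 in Cd3-negative NK cell-like cells. The 3 ranges did not overlap, and within a library the Cd3-positive class stood at 0.536, 0.701 and 0.592 times the T cell-like level. All intervals here are exact 95% counting intervals, which cover counting error only. For these ratios they ran from 0.514 to 0.560, from 0.690 to 0.712 and from 0.579 to 0.605. The Trac level of the Cd3-negative class was set beside that of cells that should lack the gene. Neutrophil-like cells had 144.8, 267.8 and 292.3 CPM of Trac, the main macrophage-like cluster 31.2, 39.4 and 30.1, and droplets without a cell (10 to 100 UMIs) 480.7, 551.0 and 605.4. Trac in Cd3-negative NK cell-like cells, at 32.8 to 42.5 CPM, lay under the neutrophil-like and cell-free levels of every library. It lay above the macrophage-like level with mono-IL-10 and the combination. These cells were chosen for having no Cd3 UMI, and Trac followed Cd3e closely over clusters (r = 0.99). Their low Trac thus follows in part from that choice, and whether it is background was not tested.

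The beta constant genes had the same order of classes as Trac in each library, with smaller gaps to the Cd3-negative class. Trbc2 was 1635, 1380 and 1646 CPM in T cell-like cells, 1111, 1255 and 1306 in Cd3-positive NK-receptor cells and 225.8, 251.5 and 255.0 in Cd3-negative NK cell-like cells. Trbc1 was 555.8, 473.9 and 520.8 CPM in T cell-like cells and 512.1, 464.1 and 460.5 in Cd3-positive NK-receptor cells, ranges that overlapped. In Cd3-negative NK cell-like cells Trbc1 was 286.5, 306.7 and 258.1 CPM, above its 102.8 to 143.9 in neutrophil-like cells and 13.3 to 18.5 in the main macrophage-like cluster. Droplets without a cell held 252.4, 333.9 and 353.4 CPM of Trbc1, above the Cd3-negative class with IL-10/2-Trikine and the combination. Trbc1 in this class was therefore 0.516, 0.647 and 0.496 times the T cell-like level, while Trbc2 was 0.138, 0.182 and 0.155 times and Trac 0.0259, 0.0367 and 0.0344 times. UMIs of a 3′ library are not divided by transcript length, so levels are compared between classes and not between genes.

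**Figure D1:**
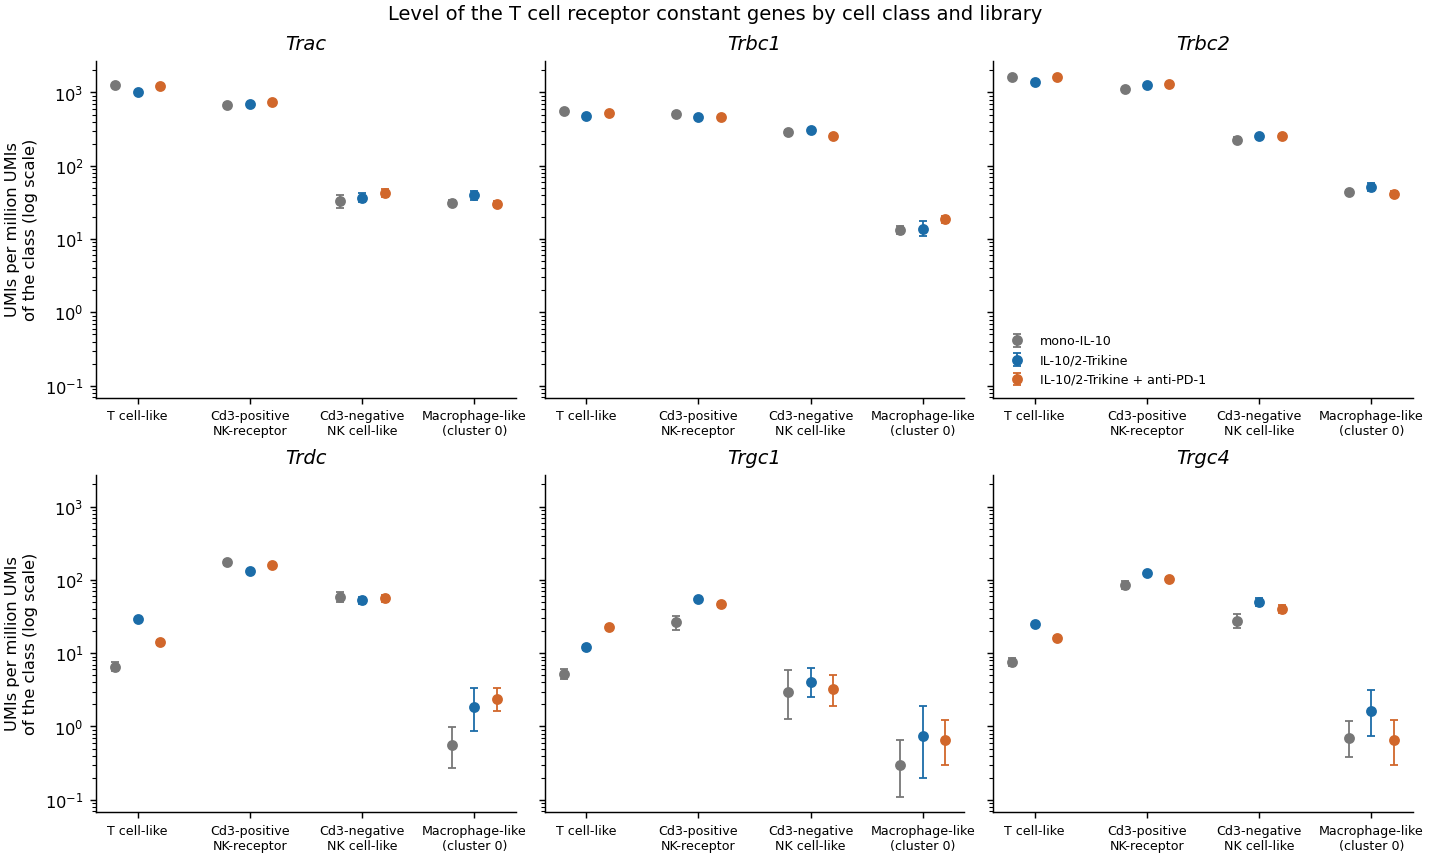
CPM (log axis) of the 6 constant genes in T cell-like, Cd3-positive NK-receptor, Cd3-negative NK cell-like and, as background, the main cluster of macrophage-like cells; each point is 1 library and bars are exact 95% counting intervals. Trac lay at 3 levels in the first 3 classes, between 1004 and 1266, 679.0 and 731.4, and 32.8 and 42.5 CPM, while Trdc was highest in Cd3-positive NK-receptor cells, between 133.9 and 173.2 CPM.

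Trdc had its highest level in the Cd3-positive NK-receptor class, at 173.2 (159.1 to 188.1), 133.9 (129.8 to 138.1) and 158.3 (151.4 to 165.4) CPM. It followed at 58.9, 52.5 and 56.2 CPM in Cd3-negative NK cell-like cells and at 6.57, 29.0 and 14.0 CPM in T cell-like cells. The order of the 3 classes was the same in each library and their ranges did not overlap. Trdc was 26.4, 4.62 and 11.3 times higher in Cd3-positive NK-receptor cells than in T cell-like cells, and 8.97, 1.81 and 4 times higher in Cd3-negative NK cell-like cells than in T cell-like cells. Cells that should lack the gene held little of it, with 0, 4.41 and 0 CPM in neutrophil-like cells and 0.552 to 2.36 CPM in the main macrophage-like cluster. The 0 UMIs of neutrophil-like cells allowed up to 4.08 CPM in the mono-IL-10 library and up to 17.1 CPM in the combination library. Droplets without a cell held 8.15, 24.2 and 26.8 CPM of Trdc, below both NK-receptor-bearing classes, while the T cell-like level lay under it in the mono-IL-10 and combination libraries. The Trdc UMIs of T cell-like cells lay in 52, 393 and 209 cells, which is 0.920%, 4.55% and 2.30% of the class. The markers listed for gamma-delta T cells (Cd163l1, Sox13, Blk, Il23r, Il17a and 5830411N06Rik, of which 4 were in the files) did not follow Trdc, with a summed level of 0.397 to 0.618 CPM in Cd3-positive NK-receptor cells and 3.62 to 5.11 CPM in T cell-like cells. Il17a and Il23r of this list are genes of IL-17-producing T cells, so a low sum does not show a lack of gamma-delta T cells. NK cell-like cells with exactly 1 Cd3 UMI had 44.4 to 66.2 CPM of Trdc, a range that enclosed that of the Cd3-negative class.

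The gamma constant genes differed in their order of classes. Trgc4 was 85.0, 122.7 and 104.1 CPM in Cd3-positive NK-receptor cells, 27.6, 49.8 and 40.7 in Cd3-negative NK cell-like cells and 7.50, 24.6 and 16.3 in T cell-like cells, the same order of classes as Trdc and without overlap. Trgc1 was 26.3, 54.7 and 46.3 CPM in Cd3-positive NK-receptor cells, 5.22, 11.97 and 22.7 in T cell-like cells and 2.95, 4.10 and 3.21 in Cd3-negative NK cell-like cells. Trgc2 behaved like Trgc1 in its order of classes, with 143.8, 238.0 and 197.1 CPM in Cd3-positive NK-receptor cells, 59.96, 123.5 and 119.5 in T cell-like cells and 2.21, 3.51 and 3.88 in Cd3-negative NK cell-like cells. Cd3-negative NK cell-like cells thus held Trdc, Trgc4 and Trbc1 above the levels of neutrophil-like cells, while their Trgc1 and Trgc2 stayed under 5 CPM. In droplets without a cell Trgc4 was 8.15, 40.2 and 23.9 CPM and Trgc1 2.97, 14.0 and 12.1.

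As a share of the UMIs of all 6 members, Trdc, Trgc1 and Trgc4 made up 0.555%, 2.24% and 1.54% in T cell-like cells. The share was 11.0%, 11.4% and 11.0% in Cd3-positive NK-receptor cells and 14.1%, 15.2% and 15.3% in Cd3-negative NK cell-like cells. The values of the Cd3-positive class lay within 1 percentage point of each other in the 3 libraries. When cells were assigned by a gate on Cd3 and NK receptor UMIs instead of by cluster, the share in Cd3-positive NK-receptor cells was 5.41%, 8.66% and 8.26%, more than 1.5 times lower in the mono-IL-10 library. The order of these classes also depended on which gamma genes were counted. With Trgc2 added to the sums, a choice made after the data were seen, the share was 15.7% (14.9 to 16.5), 18.5% (18.2 to 18.7) and 16.8% (16.5 to 17.2) in Cd3-positive NK-receptor cells, above the 14.4% (12.8 to 16.1), 15.6% (14.4 to 16.8) and 15.8% (14.6 to 16.9) of Cd3-negative NK cell-like cells, with intervals that overlapped in the mono-IL-10 and combination libraries. In T cell-like cells it was then 2.24%, 6.21% and 4.83%.

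The first treatment comparison, IL-10/2-Trikine against mono-IL-10, asks what changed when an arm that recruits the IL-2 receptor beta chain was joined to mono-IL-10. The paper describes that arm as a non-agonist form of IL-2. In T cell-like cells 3 of the 6 members passed 2-fold upward and none downward, where 3.17% of 14930 genes with at least 20 UMIs in the pair of libraries were higher and 6.78% lower. Trdc rose from 219 UMIs (6.57 CPM) to 2186 UMIs (29.0 CPM), a ratio of 4.41 (3.84 to 5.09). Trgc4 rose from 7.50 to 24.6 CPM, 3.28-fold (2.88 to 3.76), and Trgc1 from 5.22 to 11.97 CPM, 2.29-fold (1.95 to 2.71). The 3 alpha and beta genes had log2 ratios between -0.33 (Trac) and -0.23 (Trbc1), near the median of -0.13 over all genes tested. All 3 gamma and delta members were therefore higher in the IL-10/2-Trikine library and all 3 alpha and beta members were within 2-fold. Droplets without a cell moved the same way, from 8.15 to 24.2 CPM for Trdc, from 8.15 to 40.2 for Trgc4 and from 2.97 to 14.0 for Trgc1, and the part of that cell-free level in the ratios was not tested. After the mean UMIs of a neutrophil-like cell were subtracted from each cell of the class, the log2 ratios of Trdc, Trgc1 and Trgc4 were 2.08, 1.28 and 1.48. Neutrophil-like cells held 0 and 4.41 CPM of Trdc in these libraries, below the droplets, so little Trdc could be subtracted. Their medians were also lower, at 1980.5 and 1321 UMIs against 3931 and 5014 in T cell-like cells.

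The size of the Trdc difference depended on which cells were counted. Its log2 ratio was 2.14 in T cell-like cells as clustered, 2.97 in those without an Mki67 UMI (Mki67 marks dividing cells) and 1.74 under the gate on Cd3 and NK receptor UMIs. It was 0.72, within 2-fold, when the constant genes were allowed among the genes used for clustering, of which Trdc was the single one chosen. It was 1.41 when 2 further clusters (led by Calcb, Lag3 and Penk, and by Dapl1 and Ccr7) were counted with the T cell-like cells, a choice made after the data were seen. Each of these clusters had 12 of the T cell markers, but was left unnamed because its 10 leading genes held a marker of another type (Calca or Ccr7) and none of T cells. The log2 ratio of Trgc1 was within 2-fold when called doublets were left out (0.93) and with the constant genes in the clustering (0.98). The summed level of 11 NK cell markers in T cell-like cells was 3547, 7356 and 5802 CPM, highest in the library with the highest Trdc, and its part in the Trdc difference was not tested.

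The second comparison, the combination against IL-10/2-Trikine, asks what anti-PD-1 added as the treatment labels have it, and uses the IL-10/2-Trikine library a second time. In T cell-like cells no member was more than 2-fold higher (3.28% of 15304 genes were) and 1 was lower (1.51% of genes were). That member was Trdc, at 14.0 against 29.0 CPM, a ratio of 0.484 (0.447 to 0.525). It was just past the 2-fold limit, with a log2 ratio of -1.05 that became -0.99 without called doublets, -0.98 after that subtraction and -0.28 when the constant genes could enter the clustering. Trgc1 went the other way, from 11.97 to 22.7 CPM with a log2 ratio of 0.92 that passed 2-fold under 5 alternatives (1.01 to 1.22), and Trgc4 was 0.662 times its IL-10/2-Trikine level. Trac, Trbc1 and Trbc2 had log2 ratios of 0.30, 0.14 and 0.25 beside a median of 0.05 over all genes. In T cell-like cells, then, Trdc and Trgc4 were highest with IL-10/2-Trikine alone and Trgc1 was highest with the combination. Trgc4 of T cell-like cells lay under that of droplets without a cell in every library (8.15, 40.2 and 23.9 CPM). The main macrophage-like cluster held 0.644 to 1.65 CPM of Trgc4 and neutrophil-like cells 0 to 13.2. The droplets had the same order of libraries for Trgc4, and their part in its ratios was not tested.

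The Cd3-positive NK-receptor class showed another pattern across treatments. Only Trgc1 passed 2-fold between mono-IL-10 and IL-10/2-Trikine, from 26.3 to 54.7 CPM, a ratio of 2.08 (1.67 to 2.62) on 85 and 1644 UMIs. This gave 1 of 6 members higher and 0 lower, beside 5.72% and 6.75% of 12504 genes. The Trgc1 call was lost at a finer clustering (log2 ratio 0.97), with a limit of 3 Cd3 UMIs (0.99) and with the constant genes in the clustering (0.72). Trdc was 0.773 (0.708 to 0.846) times and Trgc4 1.44 (1.28 to 1.64) times the mono-IL-10 level (log2 ratio 0.53, and 1.42 under the gate on Cd3 and NK receptor UMIs), and Trac, Trbc1 and Trbc2 had log2 ratios of 0.05, -0.14 and 0.18. Between the combination and IL-10/2-Trikine none of the 6 members passed 2-fold in either direction, beside 2.93% of 12977 genes higher and 2.20% lower. Trdc stood at 1.18 (1.12 to 1.25) times and Trgc1 and Trgc4 both at 0.85 times the IL-10/2-Trikine level.

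No member passed 2-fold in Cd3-negative NK cell-like cells in either comparison. Of 10292 genes 4.37% were higher and 3.07% lower with IL-10/2-Trikine than with mono-IL-10, and of 10827 genes 2.09% were higher and 2.00% lower with the combination than with IL-10/2-Trikine. The largest member ratio was that of Trgc4, 1.80 (1.39 to 2.36) on 75 and 255 UMIs. Under the gate on Cd3 and NK receptor UMIs its log2 ratio was 1.15, past 2-fold. Trgc1 rested on 8, 21 and 19 UMIs, and its log2 ratios of 0.48 (-0.76 to 1.86) and -0.35 (-1.33 to 0.61) had intervals that reached past 2-fold. Under that gate the first of these was 1.18. After the neutrophil-like level was subtracted they were -6.18 and 7.39, since almost no Trgc1 was then left with IL-10/2-Trikine.

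Within the T cell-like class Trdc was highest in cells without a coreceptor UMI. Those without a UMI of Cd4, Cd8a, Cd8b1 or Foxp3 held 72.1%, 61.1% and 48.3% of the 219, 2186 and 838 Trdc UMIs of the class, at levels of 82.0, 331.4 and 121.4 CPM. They had medians of 1081, 1951.5 and 1083 UMIs, against 3931, 5014 and 3651 in the whole class, so a coreceptor can have been missed in them. Trdc was 1.78, 13.9 and 6.10 CPM in cells with Cd8a or Cd8b1 UMIs only, 2.61, 10.5 and 8.41 CPM in cells with Cd4 UMIs only and 2.13, 20.5 and 10.9 CPM in cells with Foxp3 and no Cd8a or Cd8b1 UMIs. In each of these gates Trdc was also lowest with mono-IL-10 and highest with IL-10/2-Trikine, on 35, 13 and 3 UMIs with mono-IL-10. Droplets without a cell held 8.15, 24.2 and 26.8 CPM of Trdc, above each of these gates in every library. B cell-like cells held up to 11.9 CPM and the main macrophage-like cluster 0.552 to 2.36. The part of that cell-free level in the gates was not tested. The clusters shared the Trdc UMIs of the class unequally between libraries. The proliferating cluster held 27.4%, 40.9% and 20.9% of the Trdc UMIs, and the cluster led by Cd8b1, Cd8a and Ccl5 held 16.9%, 34.3% and 32.8%, where Trdc went from 6.54 CPM with mono-IL-10 to 92.9 with IL-10/2-Trikine and 34.3 with the combination. A further cluster, led by Gm44174 and Sidt1, held 39.7%, 16.2% and 19.5% of the Trdc UMIs, at 10.21, 83.55 and 29.97 CPM. That led by Tnfsf8, Itgb8 and Foxp3 held 15.98%, 8.6% and 26.9%, at 6.42, 17.8 and 15.84 CPM. Trdc of the proliferating cluster was 4.38, 17.03 and 5.47 CPM, the lowest of these clusters in each library. The shares thus also follow the size of a cluster. Among Cd3-positive NK-receptor cells the cells without a coreceptor UMI had 252.0, 194.2 and 221.1 CPM of Trdc and those with only Cd8a or Cd8b1 UMIs 74.0, 44.5 and 61.6. Cells with an Mki67 UMI had 114.2, 100 and 102.8 CPM and cells without one 217.3, 242.1 and 220.6, lower in Mki67-bearing cells of every library. The other classes had the same direction, with 4.53, 18.6 and 7.17 against 8.94, 70.03 and 27.1 CPM in T cell-like cells and 23.97, 30.5 and 37.2 against 66.04, 66.2 and 61.9 CPM in Cd3-negative NK cell-like cells.

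To ask whether alpha and delta transcripts lay in the same cells, every cell was reduced at random to 1000 UMIs, which left out cells below that depth (580, 501 and 1039 T cell-like, 1, 6 and 14 Cd3-positive and 48, 237 and 363 Cd3-negative cells). Trac without Trdc was seen in 68.0%, 61.5% and 65.9% of T cell-like cells, in 39.5%, 42.7% and 39.2% of Cd3-positive NK-receptor cells and in 3.83%, 3.25% and 3.94% of Cd3-negative NK cell-like cells. Neutrophil-like cells showed Trac in 7.80%, 8.14% and 5.80% at the same depth, above the shares of the Cd3-negative class, which was chosen for having no Cd3 UMI. Trdc without Trac was seen in 0.316%, 2.00% and 0.846% of T cell-like cells. The share was 11.3% (8.58 to 14.5), 9.18% (8.21 to 10.2) and 10.9% (9.46 to 12.4) of Cd3-positive NK-receptor cells and 5.83%, 6.05% and 5.45% of Cd3-negative NK cell-like cells. Neutrophil-like cells held Trdc in 0 of 282, 1 of 442 and 0 of 69 cells, and the first of these allows a share of up to 1.30%.

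After thinning to 1000 UMIs both transcripts together were seen in 1.71%, 1.92% and 1.93% of Cd3-positive NK-receptor cells, and neither in 47.5%, 46.2% and 48.0%. Without thinning, Trdc without Trac was 14.7%, 9.32% and 12.3% of the Cd3-positive class and 15.9%, 13.2% and 11.98% of the Cd3-negative class, so the gap between these classes was seen only at equal depth. Thinned to 500 UMIs, the Cd3-positive share was 6.81%, 6.03% and 6.47%. A transcript missed at such a depth leaves a cell without a call, or turns a cell with both into a cell with Trac or Trdc alone. The share with both can therefore be too low, and the low value does not show that the 2 transcripts lay in different cells. The share with neither is not a share of cells that lack a receptor.

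**Figure D2:**
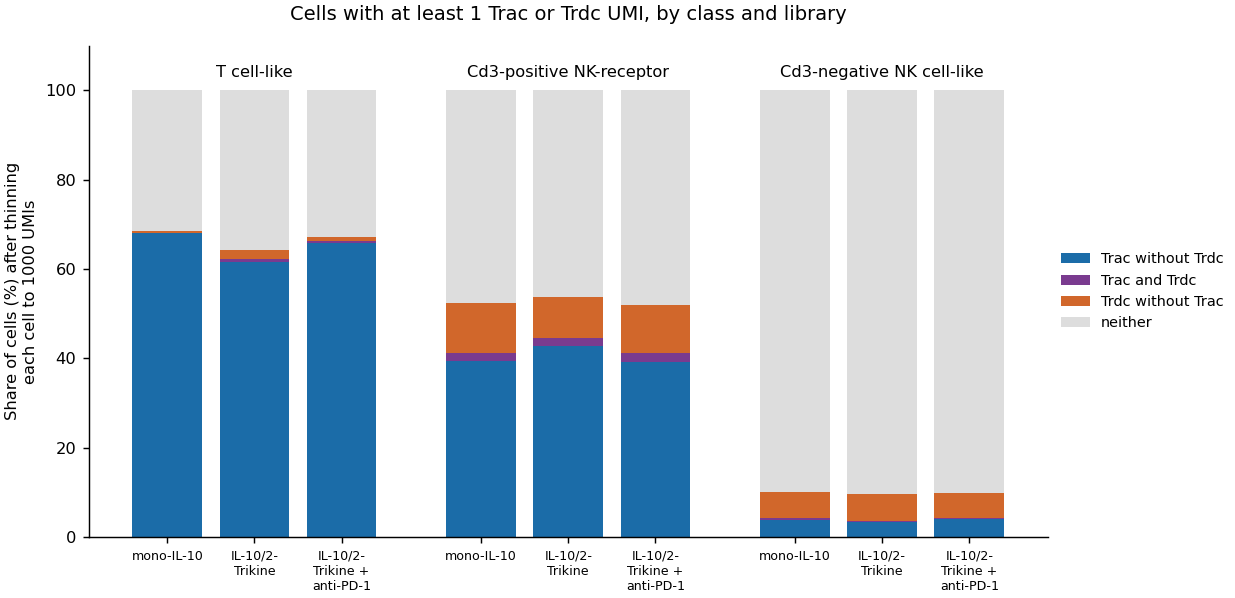
Share of cells (percent, y axis) with Trac without Trdc, with both, with Trdc without Trac and with neither after thinning to 1000 UMIs, as stacked bars for each class and library. Trdc without Trac lay between 9.18% and 11.3% of Cd3-positive NK-receptor cells, between 5.45% and 6.05% of Cd3-negative NK cell-like cells and between 0.316% and 2.00% of T cell-like cells.

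The mixture was also visible cell by cell. Among cells with at least 5 UMIs of the 6 members, the gamma and delta genes gave under 5% of them in 97.1%, 90.8% and 92.4% of T cell-like cells, and in 59.1%, 51.3% and 56.2% of Cd3-positive NK-receptor cells. At the other end, 95% or more gamma and delta UMIs were found in 0.254%, 0.674% and 0.830% of the Cd3-positive NK-receptor cells. Cells with gamma and delta UMIs and almost no Trac, Trbc1 or Trbc2 were thus rare by this measure even in that class. The measure leaves out Trgc2, and in a cell with few such UMIs 1 UMI of Trac, Trbc1 or Trbc2 takes the share below 95%. Cells with 2 or more Trdc UMIs and no Trac were 8.19% of the class over the libraries together.

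**Figure D3:**
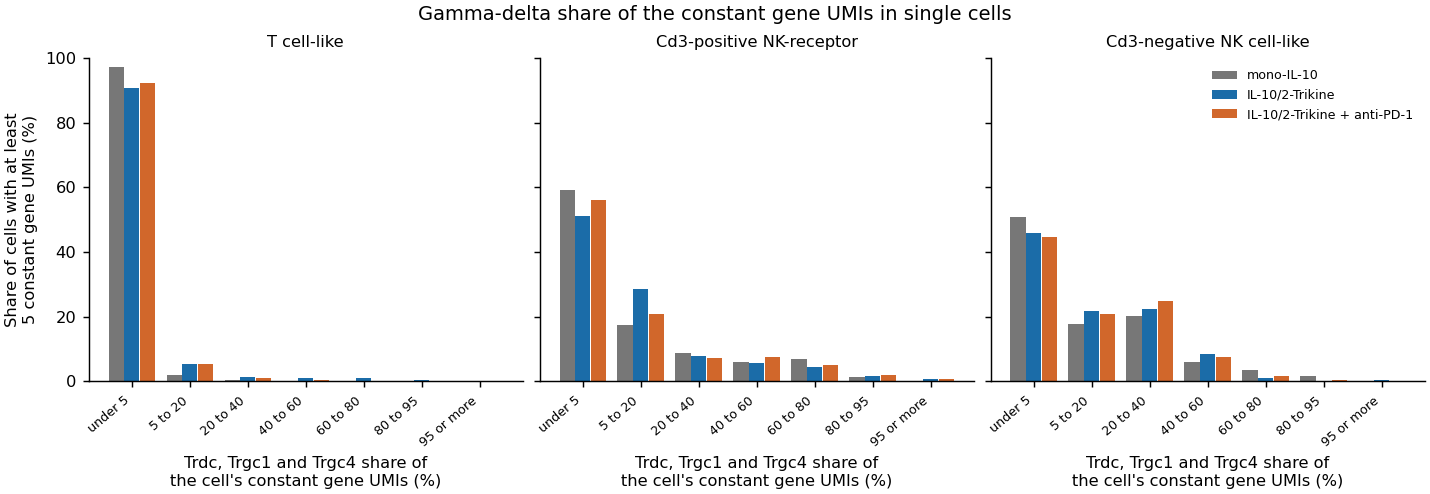
Distribution of cells by the share of Trdc, Trgc1 and Trgc4 among their UMIs of the 6 constant genes (percent, binned), for cells with at least 5 such UMIs, by class and library. Of the Cd3-positive NK-receptor cells 51.3% to 59.1% lay under 5%, against 90.8% to 97.1% of T cell-like cells, and few lay at 95% or more.

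Cells with 2 or more Trdc UMIs and no Trac were set beside cells with 2 or more Trac UMIs and no Trdc within the Cd3-positive NK-receptor class. There were 52, 247 and 158 of the first kind and 248, 2139 and 927 of the second, and the values that follow are descriptions, since members chose the cells. Trdc-bearing cells still held Trbc2 at 690.3, 784.0 and 767.3 CPM, against 1417, 1400 and 1621 in Trac-bearing cells. Trbc1 was 607.8, 451.5 and 350.6 CPM against 563.8, 473.2 and 504.1, with overlapping ranges. Droplets without a cell held 600.7, 811.9 and 974.5 CPM of Trbc2. Trbc2 of Trdc-bearing cells lay under that level with IL-10/2-Trikine and the combination, and Trbc1 did with the combination (350.6 against 353.4 CPM). Cells that should lack these genes held less, with 41.2 to 51.8 CPM of Trbc2 in the main macrophage-like cluster and 176.8 to 414.6 in neutrophil-like cells. Their Trbc1 was 13.3 to 18.5 and 102.8 to 143.9 CPM. The part of free RNA in Trdc-bearing cells was not tested. Trdc-bearing cells had medians of 3984.5, 4275 and 3699.5 UMIs and Trac-bearing cells 5858.5, 8800 and 6406, and requiring no UMI of a gene favours shallow cells.

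Gamma transcripts were higher in the Trdc-bearing cells of every library. Trgc1 was 86.8, 191.3 and 156.4 CPM in them and 9.68, 38.6 and 31.1 in Trac-bearing cells, and Trgc4 was 243.1, 276.6 and 226.5 CPM against 65.6, 103.2 and 88.3. Trgc2 was 256.1, 364.1 and 292.6 CPM against 173.2, 246.3 and 218.4. The ranges of Trgc1 and Trgc4 did not overlap between the 2 kinds of cell.

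Several other genes, chosen after their values were seen, were higher or lower in every library's Trdc-bearing cells. Ncr1, which encodes the activating receptor NKp46, was 217.1, 189.9 and 256.2 CPM in Trdc-bearing and 118.3, 71.3 and 94.2 in Trac-bearing cells. Tyrobp, the adaptor DAP12 of several activating receptors, was 468.9, 511.7 and 635.1 CPM against 297.5, 197.9 and 280.8. Klra6, a Ly49 receptor gene, went the other way with 65.1, 129.0 and 120.0 CPM against 201.7, 208.8 and 198.4. Zbtb16, the transcription factor PLZF of innate-like T cells, was 52.1, 47.3 and 58.0 CPM against 32.8, 25.5 and 32.3. Cd8a was 4.34, 5.73 and 10.8 CPM against 129.6, 75.7 and 113.9, and Mki67 was lower in Trdc-bearing cells in each library (108.5, 386.3 and 178.0 against 369.0, 636.6 and 381.6 CPM). Cd3-negative NK cell-like cells had more Ncr1 (759.1, 573.1 and 513.6 CPM) and Tyrobp (1761, 1513 and 1576) than either kind, and less Klra6 (26.15, 19.1 and 24.1). Their Zbtb16 was 41.25, 26.15 and 29.85 CPM, so that gene was not limited to T cells.

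**Figure D4:**
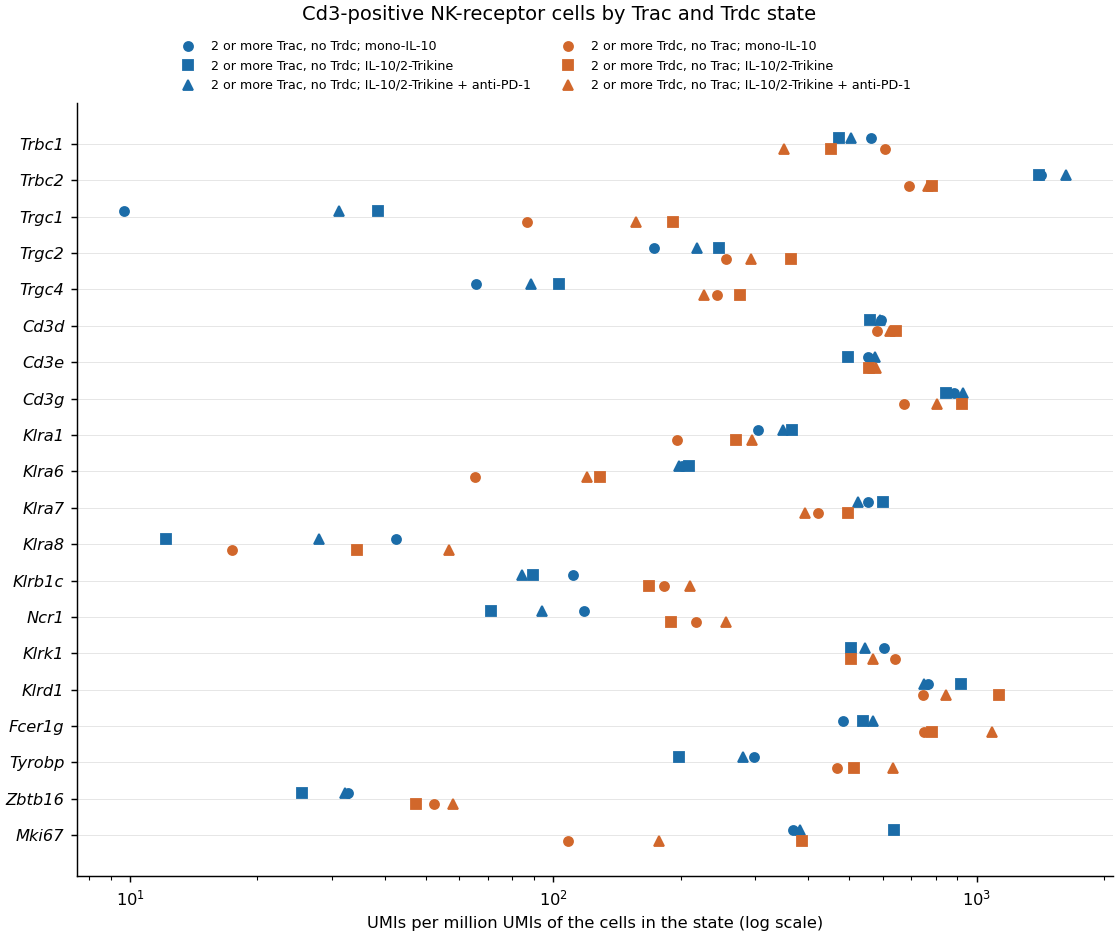
CPM (log axis) of constant, Cd3, NK receptor and adaptor genes, Zbtb16 and Mki67 in Cd3-positive NK-receptor cells with Trac and no Trdc and in those with Trdc and no Trac (at least 2 UMIs of the gene present), 1 point per library. Trgc1, Trgc4, Ncr1 and Tyrobp were higher in every library's Trdc-bearing cells, Trbc2 and Klra6 were lower, and Trbc1 ranges overlapped.

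The gamma constant genes of Trdc-bearing cells were read where a cell had 2 or more gamma UMIs. Of the 457 Trdc-bearing cells of the Cd3-positive NK-receptor class 326 had that many, and in 253 of these no single gene among Trgc1, Trgc2 and Trgc4 gave 90% of them. The gene giving at least 90% was Trgc2 in 31 cells, Trgc4 in 27 and Trgc1 in 15. T cell-like cells gave 100 cells of 143 with 2 or more gamma UMIs, of which 70 were mixed. Reads split between the near-identical Trgc1 and Trgc2 also count as mixed, so these counts do not show that a cell transcribed more than 1 gamma gene. Among the 112 Trdc-bearing cells of the Cd3-negative class only 2 had 2 or more gamma UMIs. In these 112 cells Trdc was 509.1 CPM over the libraries together, Trgc4 13.4, Trgc2 3.84 and Trgc1 0. Trdc of Cd3-negative NK cell-like cells was thus rarely seen beside gamma transcripts, in contrast to the Cd3-positive class, although Cd3-negative cells were shallower and chosen for 0 Cd3 UMIs.

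Trbc1 and Trbc2 are alternative choices of a beta rearrangement, and the share of Trbc1 in their joint UMIs differed between classes. It was 25.4%, 25.6% and 24.0% in T cell-like cells and 31.6%, 27.0% and 26.1% in Cd3-positive NK-receptor cells. In Cd3-negative NK cell-like cells it was 55.9% (53.3 to 58.6), 55.0% (53.1 to 56.8) and 50.3% (48.5 to 52.1), above both other classes in all 3 libraries. When the mean UMIs of a neutrophil-like cell were subtracted as free RNA the share in this class became 68.0%, 100% and 63.7%, and Trbc2 was then at 0 with IL-10/2-Trikine. When NK cell-like clusters were divided whole by their Cd3 content, the Cd3-negative share was 43.5% with IL-10/2-Trikine and 41.3% with the combination.

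Per cell, among those with at least 3 Trbc1 and Trbc2 UMIs together, Trbc1 alone was seen in 1.64%, 1.69% and 1.44% of T cell-like cells and 21.1%, 22.8% and 22.0% of Cd3-negative NK cell-like cells. Trbc2 alone was seen in 41.7%, 37.1% and 42.7% of T cell-like cells and 9.05%, 9.16% and 15.6% of Cd3-negative cells. The remaining cells held both genes, which was 56.7%, 61.2% and 55.8% of T cell-like cells. Where reads fell along the 2 genes was not measured, so how well their UMIs were told apart is not known. Within the Cd3-positive NK-receptor class the Trbc1 share was 28.5%, 25.3% and 23.7% in Trac-bearing cells and 46.8%, 36.5% and 31.4% in Trdc-bearing cells, higher in the latter in each library.

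**Figure D5:**
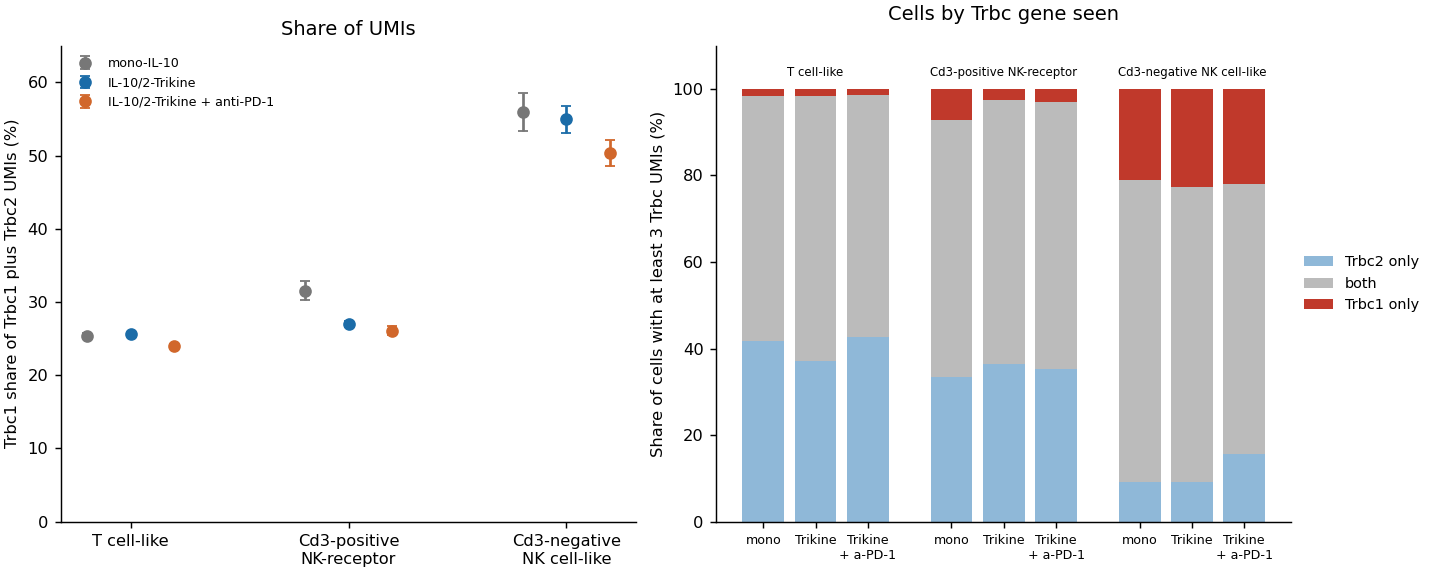
Left, Trbc1 share of Trbc1 plus Trbc2 UMIs (percent) by class and library with exact 95% binomial intervals; right, cells with at least 3 such UMIs by the gene seen, as stacked percentages. Cd3-negative NK cell-like cells lay between 50.3% and 55.9% on the left, T cell-like cells between 24.0% and 25.6%, and Trbc1 alone was seen in 21.1% to 22.8% and 1.44% to 1.69% of their cells.

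Variable segments, which rearrangement brings to the joining segments ahead of a constant gene, were counted over the libraries together. In T cell-like cells Trgv2 gave 8415 of 9225 Trgv UMIs (91.2%), and in Cd3-positive NK-receptor cells 5060 of 6872 (73.6%) with Trgv1 at 21.8%. Of these Trgv2 UMIs 7542 in T cell-like and 3691 in Cd3-positive NK-receptor cells lay in cells with 2 or more Trac UMIs and no Trdc. Cells with 2 or more Trdc UMIs and no Trac held 126 and 402. Trac-bearing cells thus held most of them, but were also far more numerous (17944 against 143 T cell-like and 3314 against 457 Cd3-positive cells). As a level, Trgv2 was higher in Trdc-bearing cells, at 224.4 against 49.1 CPM in T cell-like and 169.8 against 116 CPM in Cd3-positive NK-receptor cells. Trav11, the alpha segment of invariant NKT cells, had 0 UMIs in Cd3-positive NK-receptor cells and 2 in T cell-like cells. All Trav segments together gave 1025 and 6464 UMIs in these classes, so variable segments were rarely read. The 0 UMIs do not show a lack of invariant NKT cells. In Cd3-negative NK cell-like cells Trdv4 gave 404 of 508 Trdv UMIs (79.5%) and Trdv2-2 gave 101, while all Trav segments together gave 18 UMIs and all Trbv segments 13. Trgv segments gave 107 UMIs in that class, 72 of them Trgv1. The sums of the Cd3-negative class thus held delta variable segment UMIs, mainly of 2 genes, and almost none of beta segments. Whether they lay in the same cells as Trdc or Trbc1 was not measured. Trdv segments were not limited to that class. They gave 379 UMIs in Cd3-positive NK-receptor cells, 192 of them Trdv4, and 205 in T cell-like cells, 106 of them Trdv1.

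Levels outside the 3 classes give the members' range. The cluster led by Calcb, Lag3 and Penk had the highest Trac, at 1916, 1494 and 1645 CPM, and low Trdc at 6.12, 6.67 and 8.56. It did not overlap with T cell-like cells in Trac. In the cluster led by Dapl1 and Ccr7, Trac (1115, 894.9 and 1033 CPM) and Trdc (35.5, 34.4 and 12.01 CPM) overlapped with the T cell-like ranges. Within the mono-IL-10 library, however, Trdc of this cluster was 35.5 CPM on 221 UMIs, against 6.57 CPM on 219 UMIs in T cell-like cells, and it stayed within 2-fold between mono-IL-10 and IL-10/2-Trikine. ILC2-like cells, of which there were 35, 106 and 34, held Trbc2 at 892.6, 596.6 and 769.6 CPM and Trgc4 at 55.1, 153.7 and 41.0, with Trdc at 0, 6.07 and 0. A macrophage-like cluster in which 94.8%, 95.3% and 64.4% of cells were called doublets had 694.3, 732.9 and 629.6 CPM of Trac, which overlapped with the Cd3-positive NK-receptor range.

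The likeness of other genes was measured as Pearson's r of log2(CPM + 10) over 18 points, the 6 T and NK cell-like clusters in each of the 3 libraries, and points of 1 library or 1 cluster share their source. Among 7552 genes those nearest to Trac were Cd3e and Cd3g (both r = 0.99), which encode CD3 subunits of the receptor complex, and Cd3d (0.97). Trac and Trbc2 had r = 0.99 with each other. Trdc was nearest to Myo16 (0.92), Xdh (0.91) and Qrfp (0.88), and Trgc4 to Klra6 (0.92). Trdc had r = 0.75 with Trgc4, 0.46 with Trgc1 and -0.56 with Trac, and Trgc1 had r = 0.74 with Trgc4.

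Genes of the receptor complex and its signalling were mostly within 2-fold. In T cell-like cells 0 of 37 were higher and 3 lower with IL-10/2-Trikine than with mono-IL-10, namely Trat1 (log2 ratio -1.23), Cd8a (-1.15) and Fyn (-1.02), beside 3.17% of all genes higher and 6.78% lower, and the list's median was -0.46 beside -0.13 over all genes. In Cd3-positive NK-receptor cells 0 were higher and Cd6, Cd8b1 and Trat1 were lower, beside 5.72% and 6.75% of all genes, with a median of -0.54 beside -0.11. With the combination against IL-10/2-Trikine none passed 2-fold in T cell-like cells, beside 3.28% of genes higher and 1.51% lower (median 0.26 beside 0.05), and in Cd3-positive NK-receptor cells 1 of 37, Cd4, was higher (1.26), beside 2.93% of genes (median 0.26 beside 0.05). In Cd3-negative NK cell-like cells Themis and Plcg1 of 32 genes were lower in the first comparison, beside 3.07% of all genes (median -0.36 beside -0.07), and Cd8b1, Cd6 and Themis of 33 were higher in the second, beside 2.09% (median 0.26 beside 0.00). In the libraries compared, Plcg1 rested on 12 and 9 UMIs, Cd8b1 on 13 and 46, Cd6 on 8 and 23 and Themis on 57, 40 and 102. Cd3e itself was 739.8, 551.2 and 712.4 CPM in T cell-like cells and 454.9, 475.4 and 500.9 in Cd3-positive NK-receptor cells.

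Among genes known from gamma-delta and innate-like T cells, 11 were tested in T cell-like cells in the first comparison, and 2 were higher and 1 lower with IL-10/2-Trikine, beside 3.17% and 6.78% of all genes. Il17a, the cytokine of IL-17-producing T cells, had 0 UMIs with mono-IL-10 and 144 with IL-10/2-Trikine, at least 21.2-fold higher against a floor of 3 UMIs in the mono-IL-10 library. Trgc2 was higher (log2 ratio 1.04) and Il23r, a receptor of such cells, lower (-1.50), and the list's median was -0.19 beside -0.13. Il23r was 68.6, 21.7 and 16.8 CPM in the 17, 87 and 39 T cell-like cells with Trdc and no Trac, and 2.33, 0.716 and 0.977 in the cells with Trac and no Trdc. The cells with Trdc and no Trac had medians of 3504, 2841 and 2801 UMIs, so their Il23r levels rest on few UMIs. The 4 genes of receptor recombination, among them Rag1 and Rag2, were too low to be tested in any class. With the combination against IL-10/2-Trikine, Trgc3 (1.22) and Blk (1.20) of 12 genes were higher in T cell-like cells, beside 3.28% of all genes, with a median of 0.44 beside 0.05. Etv5 (1.42) of 8 was higher in Cd3-positive NK-receptor cells, beside 2.93% of all genes and with a median of 0.48 beside 0.05, and Rora (-1.32) of 7 had been lower there in the first comparison, beside 6.75% and with a median of -0.34 beside -0.11. In Cd3-negative NK cell-like cells none of 6 passed 2-fold in the first comparison, beside 4.37% of all genes higher and 3.07% lower. Il23r of 7 was higher in the second (2.09% of all genes were), on 3 and 17 UMIs, a ratio of 4.9 (1.42 to 26.1).

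Of the 21 NK receptor and adaptor genes, 4 were higher in T cell-like cells with IL-10/2-Trikine than with mono-IL-10, led by Klra6 (1.37) and Ncr1 (1.35), and 3 were lower, led by Eomes (-1.87), a transcription factor of NK and memory T cells. Over all genes 3.17% were higher and 6.78% lower there, and the median of the list was 0.09 beside -0.13. In Cd3-positive NK-receptor cells 4 were lower (Klra8 -2.11, Klra4 -1.56, Eomes -1.44 and Klri2 -1.13) and none higher, with a median of -0.38 beside -0.11 and with 6.75% of all genes lower. With the combination Klra8 was higher than with IL-10/2-Trikine in both classes, by 1.68 in T cell-like and 1.54 in Cd3-positive NK-receptor cells on the log2 scale, 1 of 21 genes beside 3.28% and 2.93% of all genes. None of the 21 passed 2-fold in Cd3-negative NK cell-like cells in either comparison. Of all genes there, 4.37% were higher and 3.07% lower in the first, and 2.09% higher and 2% lower in the second.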

How the data were processed

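Single-cell RNA was measured in 3 libraries, 1 per treatment, made with the 10x Genomics 3′ chemistry. The deposited values were whole-number UMI counts per gene and barcode that the authors made with Cell Ranger, in files of all barcodes. The file headers name version 8.0.0 and the labels the mm10 genome, while the methods name others. Libraries held 158570946, 197176873 and 175794959 UMIs. Barcodes under 200 genes or over 20% mitochondrial UMIs were dropped, after the limits in the study's methods. Clustering used Scanpy 1.11.5 (2000 variable genes without 662 antigen receptor genes, 30 principal components, 20 neighbours, Leiden resolution 1). Clusters were named from fixed markers, of which at least 3 had to be 1.5 times higher than elsewhere and present in 10% of cells, and a cluster stayed unnamed where another type had more markers among its 10 leading genes. Scrublet, with an expected rate of 0.08, called 14.1%, 16.3% and 5.27% of cells doublets, which were kept in the values reported and removed in an alternative.

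Counts were summed per class and library and given as CPM of the class. Intervals were Poisson for levels, Clopper-Pearson for shares and conditional binomial for ratios, at 95%. A gene with at least 20 UMIs in a pair of libraries was called when past 2-fold. The members, gene lists and markers were chosen with earlier results of these data known. The genes named were the 6 members, the listed genes past 2-fold (up to 4 in each direction, by size), and for likeness those with the highest correlation. Beyond that rule, Trgc2, Ncr1, Tyrobp, Klra6, Zbtb16, Cd8a, Cd3e and Mki67 were described after their values were seen. Scripts were tested on simulated counts. Alternatives covered clustering, doublets, gates, thinning depth, free RNA and scaling (edgeR 4.0.16). Code ran in Python 3.11.15 and R 4.3.3. Sequences and coordinates were GENCODE M21 on GRCm38. Sequences of the gamma genes are not reported here.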

Additional observations from a re-analysis of the deposited data

Results flagged for a closer look

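The Trdc difference of IL-10/2-Trikine over mono-IL-10 was looked at again because it ran in opposite directions in 2 classes. Its log2 ratio was 2.14 in T cell-like cells and -0.37 in Cd3-positive NK-receptor cells. The same gene differed in direction between the combination and IL-10/2-Trikine, with log2 ratios of 0.24 in Cd3-positive NK-receptor cells and -1.05 in T cell-like cells. Both comparisons use the IL-10/2-Trikine library, and with 1 library per treatment the difference between the classes was not tested.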

How the results depend on the processing

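Over 72 results and 19 alternative settings 896 values were computed, and no log2 ratio past 2-fold as reported turned its direction. Under 2-fold as reported, the Trgc1 log2 ratios of Cd3-negative NK cell-like cells (0.48 and -0.35) turned past 2-fold to -6.18 and 7.39 after the neutrophil-like level was subtracted, and the first was 1.18 under the gate on Cd3 and NK receptor UMIs. Of the values that answer a comparison 88 moved by less than their counting interval and 43 by more. Of the others, 534 and 231 did. The gamma-delta share in Cd3-positive NK-receptor cells was 13.2%, 12.4% and 11.4% without called doublets, 13.1%, 12.97% and 11.6% with the constant genes allowed in the clustering, 5.41%, 8.66% and 8.26% under the gate on Cd3 and NK receptor UMIs, and 11.7%, 12.1% and 11.8% after the neutrophil-like level was subtracted as free RNA. With Trgc2 counted, an alternative chosen after seeing the data, it was 15.69%, 18.48% and 16.84%, and the order of the Cd3-positive and Cd3-negative classes turned in all 3 libraries. The share of these cells with Trdc without Trac was 7.26%, 7.11% and 8.53% under that gate, 6.81%, 6.03% and 6.47% at 500 UMIs and 6.40%, 4.64% and 5.73% when 2 UMIs were required. It was 14.7% with mono-IL-10 when cells were not thinned. With IL-10/2-Trikine it was 11.5% with constant genes in the clustering, and with IL-10/2-Trikine and the combination 8.18% and 8.002% when clusters were divided whole and 10.2% and 12.6% at 2000 UMIs. The Trdc log2 ratio of T cell-like cells of IL-10/2-Trikine over mono-IL-10 was 0.72 with constant genes in the clustering, 1.74 under the gate, 2.97 without Mki67-bearing cells and 1.41 with the 2 unnamed clusters, an alternative chosen after seeing the data. Between the combination and IL-10/2-Trikine it was -0.28 with constant genes in the clustering and -1.37 without Mki67-bearing cells. The Trbc1 share of Cd3-negative NK cell-like cells was 43.5% with IL-10/2-Trikine and 41.3% with the combination when clusters were divided whole, 68.0%, 100% and 63.7% after subtraction, and 50.8% with mono-IL-10 and 43.4% with the combination when each cell was counted by its larger gene. The cause of these shifts was not tested. Subtraction of free RNA could not give shares of cells. No paired analysis was possible because each treatment was 1 library, and no library could be left out. Depth limits Trgc1 in Cd3-negative NK cell-like cells, which rested on 8 to 21 UMIs.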
